A study of Mus musculus with 6 samples.

Results

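The MYC, MAX and MXD network was examined in early LPre-B cells, the large pre-B cells of mouse bone marrow at an early point, with and without a B lineage deletion of *Upf1*. The network comprised 10 genes taken by symbol, *Myc*, *Mycn*, *Max*, *Mxd1*, *Mxd3*, *Mxd4*, *Mxi1*, *Mnt*, *Mga* and *Mlx*, and each was matched by Entrez ID to 1 of the 13426 rows of the normalised expression table. All 10 had a row. Libraries were prepared from sorted early LPre-B cells of Ctrl mice (genotype Upf1 Flox/Flox, Mb1 +/+) and of Upf1-cKO mice (Upf1 Flox/Flox, Mb1 Cre/+), with 3 libraries per group. Both groups carried loxP sites on each *Upf1* allele, and the Cre recombinase was expressed from the *Cd79a* (Mb1) locus in the Upf1-cKO mice only, so loss of UPF1 and presence of Cre cannot be told apart. Per the study's methods the mice were adult, age-matched and of both sexes on a C57BL/6 background.

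MYC and MYCN are transcription factors with a basic helix-loop-helix leucine zipper that bind DNA only as dimers with MAX. MXD1, MXI1, MXD3, MXD4, MNT and MGA compete for MAX at the same E-box sequences and recruit repressors, while MLX is a MAX-like partner of MondoA, ChREBP and part of the MXD group. In pre-B cells MYC is known for driving growth and proliferation downstream of the interleukin-7 receptor.

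Library depth and identity were checked first. Recovered reads ranged from 9732498 to 11006834 per library. *Upf1*, the targeted gene, had normalised reads of 260, 203 and 259 in the Ctrl libraries and 308, 283 and 300 in the cKO-labelled libraries (log2 fold change 0.31, adjusted p 0.00696 in limma, and 0.20 and 0.0645 after median centring). Its row sums the whole gene, so it does not resolve the removed exons and does not check the labels, and the libraries are called cKO-labelled for that reason. All 17 listed B lineage markers had a row, of which 8 were higher and 4 lower in limma, where 27.7% of all genes were higher and 25.0% lower. *Cd79a*, the locus that carries Cre, had 221 ± 11.4 normalised reads in Ctrl and 73.3 ± 1.85 in the other group (SD, n = 3 for each), so it was lower in the group whose label places Cre in this locus. Of 10 T cell markers, *Lck* and *Cd5* had a row, summing to between 64.5 and 94.4 normalised reads in Ctrl and between 25.2 and 27.9 in cKO-labelled libraries, and *Cd3d*, *Cd3e* and *Cd3g* had none. Nearly all of that sum was *Lck*, which was lower (means of 75.4 and 25.3), and *Cd5* did not pass (adjusted p 0.139 in limma). Of 8 natural killer cell markers 2 had a row and 1 was higher, with sums from 1.17 to 1.59 and from 3.79 to 5.27. Among 10 erythroid and megakaryocyte markers 4 had a row and 0 were called. Among 9 mature B and plasma cell markers, 2 were higher (*Cr2* and *Ighd*) and 3 lower (*Cd22*, *Sdc1* and *Jchain*). Their sums ran from 305 to 324 in Ctrl and from 113 to 136 in cKO-labelled libraries. Most of that difference was *Cd22*, with a mean of 207 normalised reads in Ctrl and 28.5 in cKO-labelled libraries. Myeloid and neutrophil markers moved with the group. Of 13 such markers in the table, 7 were higher and 1 lower, and they summed to between 71.3 and 188.6 normalised reads in Ctrl and between 399.7 and 550.1 in cKO-labelled libraries.

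Sequences around an annotated start of the network genes were read from the RefSeq promoter table (GRCm38.p6, 250 bases before to 50 after each start), which matched 9 of the 10 genes with 11 promoters. *Myc* had no entry. The canonical E-box CACGTG, the site bound by MYC-MAX and MXD-MAX dimers, was found in 4 of them, *Max*, *Mlx*, *Mnt* and *Mxd4*, against 7.15% of all promoters in the table and 11.7% of the expressed genes with a promoter. The windows are shown because these promoters hold the letters that the network itself binds, with the motif in capitals, 5′ to 3′ on the strand of the gene.
*Max*: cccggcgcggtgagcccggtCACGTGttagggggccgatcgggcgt
*Mlx*: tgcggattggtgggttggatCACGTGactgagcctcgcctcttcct
*Mnt*: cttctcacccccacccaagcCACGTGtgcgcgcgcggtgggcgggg
*Mxd4*: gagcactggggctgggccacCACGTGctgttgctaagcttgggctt
These windows lie at chr12:76962226-76962271 on the minus strand for *Max*, at chr11:101087230-101087275 on the plus strand for *Mlx*, at chr11:74830781-74830826 on the plus strand for *Mnt* and at chr5:34187904-34187949 on the minus strand for *Mxd4*. The first base of the motif lay 3, 40, 123 and 219 bases before the start site that the promoter table uses, in that order, and the motifs of *Max* and *Mlx* lie inside the longer RefSeq gene spans given with their values. The motif was outside the transcripts of GENCODE M21 in each case.

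A noncanonical E-box (CACGCG, or CGCGTG on the other strand) was present in the promoter of *Mga* alone among the network genes, against 9.27% of all promoters and 19.7% of the expressed genes with a promoter. Its first base lay 21 bases before the start in the promoter table, which is inside the RefSeq span of *Mga*. The promoter of *Mycn* held the E2F motifs TTTCGCGC and TTTGGCGC, counted on both strands, which were present in 0.323% and 0.514% of all promoters and in 0.834% and 1.13% of the expressed genes. It is shown because *Mycn* had the largest difference of the network, and a copy of each motif overlaps in the first run of capitals.
*Mga*: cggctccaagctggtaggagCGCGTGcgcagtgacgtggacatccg
*Mycn*: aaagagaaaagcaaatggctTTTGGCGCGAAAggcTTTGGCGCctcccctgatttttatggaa
The *Mga* window is at chr2:119897187-119897232 on the plus strand and the *Mycn* window at chr12:12941977-12942039 on the minus strand, also outside GENCODE transcripts. The amino acid response motif TTGCATCA and the core of the interferon-stimulated response element, both searched on both strands, occurred in 0 of the 11 promoters, against 0.895% and 3.44% of all promoters. A match to these letters is a description and not a measured binding site.

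Differences between the groups were tested with limma on log2(value + 1) across all genes, where a value is a read count plus 0.5 per 1e6 reads of an effective library size, called normalised reads here. At an adjusted p below 0.05, 4 members of the network were higher with the cKO label (*Mycn*, *Mxd1*, *Mxi1* and *Mga*) and 3 were lower (*Mlx*, *Mxd4* and *Mxd3*), and *Myc*, *Max* and *Mnt* did not pass. Over all genes the same test called 52.7% in either direction, 27.7% as higher and 25.0% as lower. Read against that background, the count of 7 of 10 is no result about the network as a whole, and what follows is which members moved and by how much. The median log2 fold change was 0.03 over the 10 genes and 0.01 over all genes. The libraries of the groups did not overlap for 5 of the 10 genes, 4 of them higher and 1 lower, against 58.8% of all genes, 30.9% higher and 28.0% lower. In bulk libraries fewer cells of a type and less RNA per cell cannot be told apart.

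**Figure D1:**
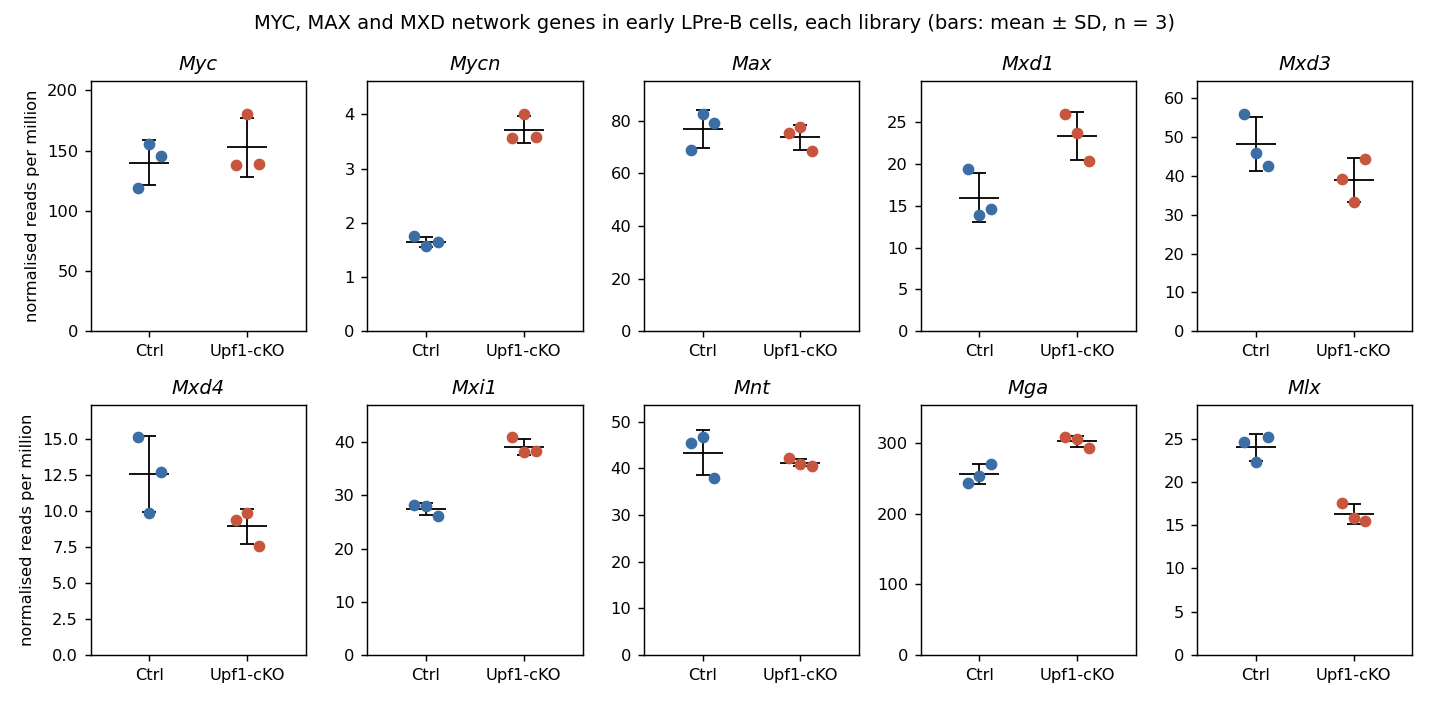
Normalised reads (y axis, from 0) of the 10 network genes in each Ctrl and Upf1-cKO library, with the mean and SD of 3 libraries. The groups do not overlap for *Mycn*, *Mxd1*, *Mxi1*, *Mga* and *Mlx*, and they share a range for the other genes.

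The activators were taken first. *Myc* (Entrez ID 17869, chromosome 15, 61985341 to 61990361, GRCm38) had 119, 155 and 146 normalised reads in Ctrl libraries 1 to 3 and 138, 181 and 139 in cKO-labelled libraries 1 to 3. The groups overlapped, the lowest value was in Ctrl library 1, and the highest value was in cKO-labelled library 2. The log2 fold change was 0.12 with a 95% interval of -0.13 to 0.37 and an adjusted p of 0.402 in limma. Scaled to total reads, which moved the median of all genes up by 0.18, the value was 0.32 and passed the threshold (adjusted p 0.032). Centred on library medians, which moved that median by -0.11, it was 0.01. Leaving out 1 library moved the value to 0.01 without Ctrl library 1, -0.01 without cKO-labelled library 2 and 0.20 without Ctrl library 2, and in none of the 6 such fits did it pass the threshold.

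*Mycn* (Entrez ID 18109, chromosome 12, 12936093 to 12941836), the paralog of *Myc* named for neuroblastoma, was low in both groups. It had 1.75, 1.57 and 1.64 normalised reads in Ctrl and 3.56, 4.01 and 3.58 in cKO-labelled libraries. Every cKO-labelled library exceeded every Ctrl library, from 15 to 16 reads in Ctrl and from 36 to 44 reads in cKO-labelled libraries. The ratio of the means was 2.25, and the log2 fold change was 0.83 (SE 0.20, adjusted p 0.00177 in limma), which the added 1 makes smaller. With no pseudocount it was 1.17. Per kilobase of transcript, *Mycn* made up between 0.873% and 1.27% of the summed *Myc* and *Mycn* level in Ctrl and between 1.91% and 2.21% in cKO-labelled libraries, so *Myc* was the far more abundant transcript in every library.

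The third family gene, *Mycl*, had 4, 1 and 2 reads in Ctrl and 12, 18 and 7 reads in cKO-labelled libraries. It entered the table only through the cKO-labelled libraries and therefore had to differ, so its log2 fold change of 0.73 (adjusted p 0.0138 in limma) is given as a value alone. It missed the threshold with quantile normalization (limma adjusted p 0.0508), without Ctrl library 2 (0.0525) and without cKO-labelled library 2 (0.079), and both low-value filters removed it. *Pvt1*, a non-coding RNA gene that begins 47624 bases after the end of *Myc* (chromosome 15, 62037986 to 62260215), was examined after its values had been seen. It had 4.20, 6.52 and 6.21 normalised reads in Ctrl and 67.6, 57.3 and 64.1 in cKO-labelled libraries. It rose by 3.28 on the log2 scale (SE 0.15, adjusted p 3.02e-12 in limma), and passed the threshold in each of 18 alternatives, while its neighbour *Myc* did not pass the test. A pseudogene, *Macroh2a3*, overlaps the *Pvt1* span by 1911 bases. The genes whose pattern over the 6 libraries was most like that of *Myc*, among 9201 genes, were *Nmd3*, *Eif1* and *Mpv17*, with Pearson r of 0.95, 0.95 and 0.94. These values are a description over 6 libraries that also share their group and depth, and none of the 3 genes passed the test between the groups.

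**Figure D2:**
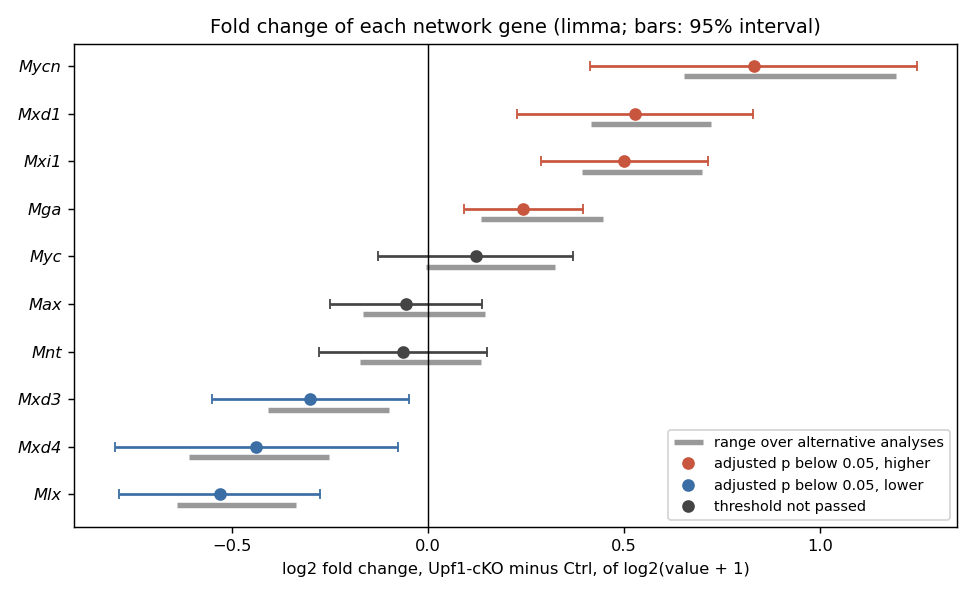
Log2 fold change (x axis, Upf1-cKO minus Ctrl, of log2(value + 1)) of each network gene in limma with its 95% interval, and in grey the range over the alternative analyses. The intervals of *Myc*, *Max* and *Mnt* include 0, and those of the 7 other genes do not.

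*Max* (Entrez ID 17187, chromosome 12, 76937269 to 76962323) encodes the shared partner. It had 68.8, 82.7 and 79.1 normalised reads in Ctrl and 75.3, 77.5 and 68.4 in cKO-labelled libraries. The groups overlapped, with a log2 fold change of -0.06 and a 95% interval of -0.25 to 0.14 (adjusted p 0.629 in limma).

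Levels were then set on a common scale of normalised reads per kilobase of the longest transcript, to compare genes with each other. In Ctrl libraries the order was *Myc* (59.9 ± 8.11), *Max* (39.6 ± 3.72), *Mxd3* (27.7 ± 4.03), *Mga* (18.4 ± 0.998), *Mlx* (12.2 ± 0.779), *Mnt* (9.44 ± 1.04), *Mxi1* (5.45 ± 0.236), *Mxd1* (3.42 ± 0.638), *Mxd4* (2.72 ± 0.572) and *Mycn* (0.618 ± 0.0352; SD, n = 3 for each). *Mxd1* and *Mxd4* overlapped in this order and the other neighbours did not. In cKO-labelled libraries *Mnt* (8.98 ± 0.171) stood above *Mlx* (8.30 ± 0.585), where the pair overlapped, as did *Mxd3* with *Mga* and *Mlx* with *Mxi1*. The remaining genes kept their places.

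Transcripts of the 8 MAX partners in the network summed to between 124 and 132 of these units in Ctrl and between 130 and 144 in cKO-labelled libraries. The ratio of *Max* to that sum was 0.310 ± 0.0212 in Ctrl against 0.283 ± 0.0138 with the cKO label (SD, n = 3), and the ranges overlapped. The ratio of summed *Myc* and *Mycn* to the summed MXD genes (*Mxd1*, *Mxd3*, *Mxd4* and *Mxi1*) was 1.14, 1.81 and 1.77 in Ctrl and 1.58, 2.32 and 1.55 in cKO-labelled libraries, which also overlapped. These are transcript levels and say nothing of the amount of protein.

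**Figure D3:**
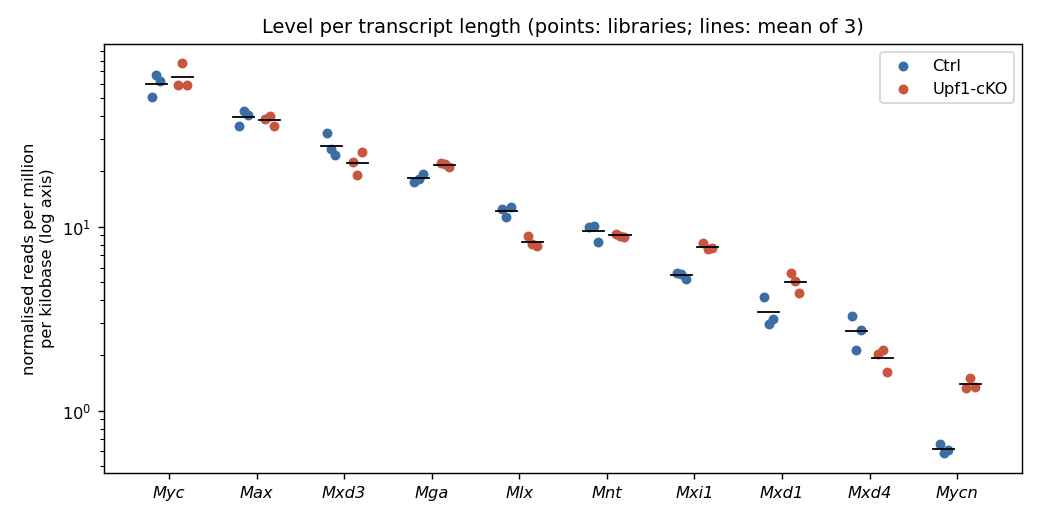
Level of each network gene per kilobase of its longest transcript (y axis, log scale), with each library as a point and the mean of 3 as a line. *Myc* and *Max* are highest and *Mycn* lowest in both groups.

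The 4 MXD genes, which encode repressors that bring SIN3 and histone deacetylases to MAX-bound sites, divided by direction. *Mxi1* (Entrez ID 17859, chromosome 19, 53310128 to 53373293) had 28.2, 28.0 and 26.1 normalised reads in Ctrl and 40.9, 38.3 and 38.4 in cKO-labelled libraries. The 2 groups were well apart and each was tight. It rose by 0.50 on the log2 scale (SE 0.10, adjusted p 0.000425 in limma), a ratio of means of 1.43, and passed the threshold in each of 18 alternatives with values from 0.39 to 0.70. A non-coding gene, *Gm30541*, lies within its annotated span and has no row of its own.

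*Mxd1* (Entrez ID 17119, chromosome 6, 86647044 to 86669234) is known as the MXD member induced when cells leave the cycle and differentiate. It had 19.4, 13.9 and 14.6 normalised reads in Ctrl and 26.0, 23.7 and 20.4 in cKO-labelled libraries. Ctrl library 1 came close to the lowest cKO-labelled library, and the groups did not overlap. The log2 fold change was 0.53 (SE 0.14, adjusted p 0.00463 in limma), from 0.42 to 0.72 over 18 alternatives that all passed the threshold. A non-coding gene, *Gm38850*, overlaps the annotated span of *Mxd1* by 9111 bases and has no row of its own. The neutrophil granule genes *Ngp*, *Ltf*, *S100a8*, *S100a9* and *Camp* together had 111, 7.53 and 8.99 normalised reads in Ctrl libraries 1 to 3 and 432, 334 and 306 in cKO-labelled libraries 1 to 3. *Mxd1* was thus highest within each group in library 1, where these genes were highest. *Mxi1* was also highest there, but in Ctrl only by 28.2 against 28.0 in library 2. In cKO-labelled libraries 2 and 3 *Mxi1* had 38.3 and 38.4 normalised reads, in the opposite order to the granule genes. Without Ctrl library 1 the *Mxd1* value was 0.67 (adjusted p 0.000517 in limma), and the part of neutrophil RNA in either gene was not tested.

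**Figure D4:**
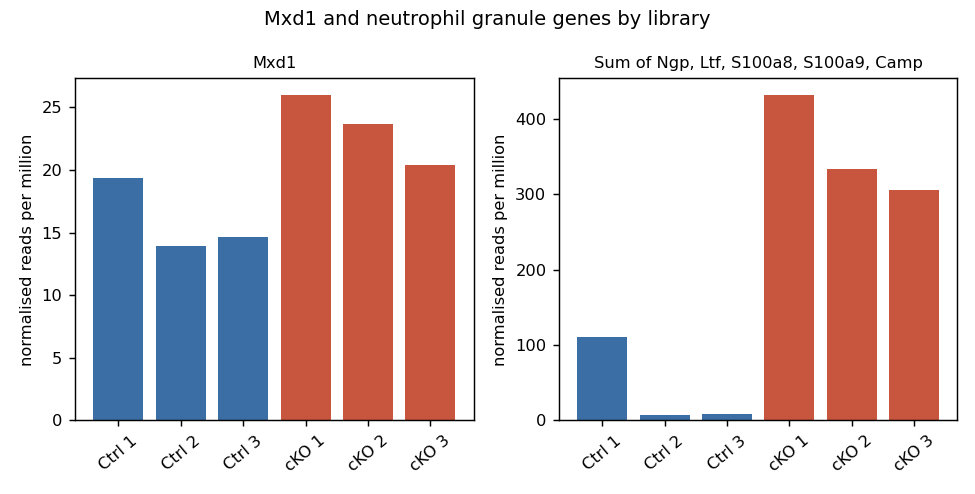
Normalised reads of *Mxd1* (left) and of 5 neutrophil granule genes summed (right) in each library, both axes from 0. Within Ctrl and within the cKO-labelled libraries, library 1 is highest in both panels.

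*Mxd3* and *Mxd4* fell, and both were close to the threshold and lost their call under several alternatives. *Mxd3* (Entrez ID 17121, chromosome 13, 55325170 to 55329900), the MXD member known for expression in proliferating cells, had 56.0, 45.9 and 42.6 normalised reads in Ctrl and 39.2, 33.2 and 44.4 in cKO-labelled libraries. The groups overlapped through cKO-labelled library 3. The log2 fold change was -0.30 (SE 0.12, adjusted p 0.0425 in limma), and it missed the threshold with eBayes without trend (adjusted p 0.134), with edgeR (0.0505), with voom (0.0541), and without Ctrl library 1 (-0.19, adjusted p 0.192), Ctrl library 2 (-0.33, 0.0603), cKO-labelled library 1 (-0.31, 0.0865) or cKO-labelled library 2 (-0.19, 0.234). Its annotated span overlaps *Prelid1* by 103 bases, and *Prelid1* fell by 0.85 (limma, adjusted p 4.94e-07), so reads of the shared bases cannot be assigned without strand.

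*Mxd4* (Entrez ID 17122, chromosome 5, 34176580 to 34187710) had 15.1, 9.85 and 12.8 normalised reads in Ctrl and 9.42, 9.87 and 7.54 in cKO-labelled libraries. Ctrl library 2 and cKO-labelled library 2 were nearly equal. The log2 fold change was -0.44 (SE 0.17, adjusted p 0.0396 in limma), and it missed the threshold with eBayes without trend (adjusted p 0.0675), and without Ctrl library 1 (-0.30, adjusted p 0.171), Ctrl library 3 (-0.42, 0.0816), cKO-labelled library 1 (-0.48, 0.0614) or cKO-labelled library 3 (-0.33, 0.168). Scaled to total reads, neither *Mxd3* (-0.10, adjusted p 0.508) nor *Mxd4* (-0.25, adjusted p 0.245) passed.

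*Mnt* and *Mga* encode the larger MAX-binding repressors. *Mnt* (Entrez ID 17428, chromosome 11, 74830806 to 74845725), a broadly expressed antagonist of MYC, had 45.5, 46.6 and 37.9 normalised reads in Ctrl and 42.1, 41.0 and 40.6 in cKO-labelled libraries. The cKO-labelled values lay inside the Ctrl range. The log2 fold change was -0.06 with a 95% interval of -0.28 to 0.15 (adjusted p 0.617 in limma).

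*Mga* (Entrez ID 29808, chromosome 2, 119872503 to 119970129) encodes a protein with both a T-box and a MAX-binding domain that anchors the polycomb complex PRC1.6. It had 244, 253 and 271 normalised reads in Ctrl and 309, 307 and 294 in cKO-labelled libraries. The groups did not overlap, though the difference was small, with a ratio of means of 1.18. The log2 difference was 0.24 (SE 0.072, limma adjusted p 0.00896), 0.13 after median centring (adjusted p 0.129) and 0.45 when scaled to total reads (adjusted p 0.000192). It also missed the threshold with eBayes without trend (adjusted p 0.0588) and without cKO-labelled library 1 (0.23, 0.0527).

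*Mlx* (Entrez ID 21428, chromosome 11, 101086707 to 101092207) had the largest fall of the network. It had 24.6, 22.3 and 25.2 normalised reads in Ctrl and 17.6, 15.8 and 15.5 in cKO-labelled libraries. Every cKO-labelled library was below every Ctrl library. It fell by 0.53 in log2 units (SE 0.12, adjusted p 0.0013 in limma), with values from -0.64 to -0.34 over 18 alternatives that all passed the threshold. Its annotated span overlaps *Psmc3ip* by 67 bases, and *Psmc3ip* fell by 0.43 (adjusted p 0.0436). *Mlxip*, which encodes MondoA, the partner of MLX in sensing glucose, had 174, 145 and 188 normalised reads in Ctrl and 161, 168 and 177 in cKO-labelled libraries. Its log2 fold change was 0.01 with a 95% interval of -0.18 to 0.20 (adjusted p 0.961 in limma). *Mlxipl*, which encodes ChREBP, had no row.

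Genes that work with the network were then counted from lists written from general knowledge. Across the lists 139 genes outside the network had a row, and 24 were higher and 62 lower, where 27.7% and 25.0% of all genes were, with a median log2 fold change of -0.22 against 0.01 over all genes. The 24 include *Mycl*, which had to differ as stated above. When libraries were scaled to total reads the numbers were 35 and 30, where 38.5% of all genes were higher and 14.4% lower and the median of all genes was 0.19, and counts under that scaling below are to be read against those shares. Of 18 MYC coactivators, 3 were higher and 6 lower (median -0.08). Scaled to total reads they were 5 and 2, with a median of 0.12 that was also below that of all genes, and 3 were lower without cKO-labelled library 2 or with eBayes without trend. With median centring 3 were higher and 9 lower, with a median of -0.19, where 22.3% of all genes were higher and 32.4% lower. The median was -0.16 without Ctrl library 3. The acetyltransferase gene *Ep300* fell by 0.57, from 261 ± 16.0 to 175 ± 7.70 normalised reads (SD, n = 3, adjusted p 4.88e-06 in limma), and *Wdr5*, whose product binds MYC on chromatin, rose by 0.42. Of 16 corepressor genes used by MXD and MNT, 2 were higher and 9 lower (median -0.28), and 3 and 4 when scaled to total reads (median -0.08). Of the higher genes 0 passed without cKO-labelled library 1, without cKO-labelled library 3, with median centring or with eBayes without trend, and 6 were lower without Ctrl library 3 or without either of those cKO-labelled libraries. The histone-binding subunit genes *Rbbp4* and *Rbbp7* fell by 0.67 and 0.65, and the deacetylase gene *Hdac1* fell by 0.52, from 125 ± 4.73 to 86.7 ± 3.30 normalised reads (adjusted p 2.29e-05).

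The partners of MGA in PRC1.6 numbered 10. Of these 2 were higher and 4 lower, where 27.7% and 25.0% of all genes were. The median was -0.28, and -0.08 when scaled to total reads or -0.12 with a minimum mean log2 value of 3. *E2f6*, the DNA-binding E2F of the complex, rose by 0.75 (adjusted p 0.000236 in limma), while *Ring1*, an E3 ligase subunit gene, and *Tfdp1*, the gene of the E2F dimer partner, fell by 0.67 and 0.66. Of 18 germline genes known to be silenced by this complex, 3 had a row. The others, among them *Ddx4*, *Dazl* and *Stra8*, had none, so nothing is read for the list as a whole. Every gene with a row exceeded 0.5 normalised reads in at least 3 libraries. *Stag3*, a meiotic cohesin gene, rose from 9.83 ± 2.05 to 23.9 ± 0.806 normalised reads (log2 fold change 1.22, adjusted p 1.51e-06), and *Tdrkh*, a piRNA pathway gene, rose from 5.35 ± 0.659 to 14.4 ± 0.491 (1.28, adjusted p 2.19e-06; SD, n = 3). *Sycp3*, named because it is the third of these, had a log2 fold change of 0.05 and did not pass.

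Among regulators of MYC itself more genes were lower than higher, where 27.7% of all genes were higher and 25.0% lower. Of 16 genes that control the stability of the MYC protein 10 were lower and 1, *Usp28*, was higher (median -0.32), a call that *Usp28* lost in 7 of 18 alternatives. *Skp2*, a ubiquitin ligase gene, fell by 0.43, and *Plk1* and *Ppp2ca*, which encode a kinase and a phosphatase subunit, fell by 0.46 each. Scaled to total reads, 3 were lower and 3 higher, with a median of -0.12 against 0.19 over all genes. Of 14 genes for regulators of *Myc* mRNA in the table, 8 were lower and 1 was higher (median -0.44), and 6 and 2 when scaled to total reads (median -0.24). With quantile normalization the median was also -0.24. *Zfp36* and *Zfp36l1*, whose products bind AU-rich elements and speed mRNA decay, fell by 0.86 and 0.69, and *Ybx1* fell from 592 ± 120 to 309 ± 45.3 normalised reads (SD, n = 3, log2 fold change -0.93, adjusted p 0.0014 in limma). The higher gene, *Igf2bp2*, lost its call in 14 of 17 alternatives, among them DESeq2 (adjusted p 0.153), edgeR (0.0739) and the replicate block (0.0537).

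Targets of the network were then counted, where 27.7% of all genes were higher and 25.0% lower. The counts below for genes repressed by MYC and for targets of MLX are near those shares and are no result about those lists. Of 40 genes known to be activated by MYC, 20 were lower and 6 higher (median -0.28), and 9 were lower and 9 higher when scaled to total reads, with a median of -0.08 against 0.19 over all genes, and 13 were lower with eBayes without trend. *Ldha*, of glycolysis, fell from 598 ± 110 to 294 ± 13.1 normalised reads (SD, n = 3) and *Tfrc*, the transferrin receptor gene, fell by 0.90 on the log2 scale, whereas *Nop56*, a small nucleolar RNP gene, and *Slc7a5*, an amino acid transporter gene, rose by 1.35 and 0.78. Of 12 genes known to be repressed by MYC, 4 were higher and 2 lower (median 0.21), with medians from 0.05 under quantile normalization and 0.10 after median centring to 0.34 without Ctrl library 3 and 0.35 when scaled to total reads. *Cdkn1a*, which encodes the CDK inhibitor p21, rose from 25.0 ± 3.62 to 64.4 ± 0.589 normalised reads (SD, n = 3, log2 fold change 1.34, adjusted p 8.86e-09 in limma), and *Btg1* and *Cdkn2c*, both antiproliferative, fell by 0.94 and 0.66. *Gadd45b*, a stress gene that is also a known substrate of nonsense-mediated decay, rose by 1.96. Of 9 targets of MLX and its partners, 3 were higher and 3 lower (median 0.10, and -0.01 after median centring), and 4 were higher and 1 lower when scaled to total reads (median 0.30). Leaving out 1 library moved the reported median to values between 0.05 without Ctrl library 1 and 0.19 without Ctrl library 3, cKO-labelled library 2 or cKO-labelled library 3. *Txnip*, the glucose-responsive target of MondoA-MLX and also a member of the list repressed by MYC, rose by 0.53, from 49.0 ± 1.09 to 71.2 ± 3.62 normalised reads (SD, n = 3, adjusted p 5.41e-05), in the libraries where *Mlx* was lower, and *Scd2* rose by 0.68.

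**Figure D5:**
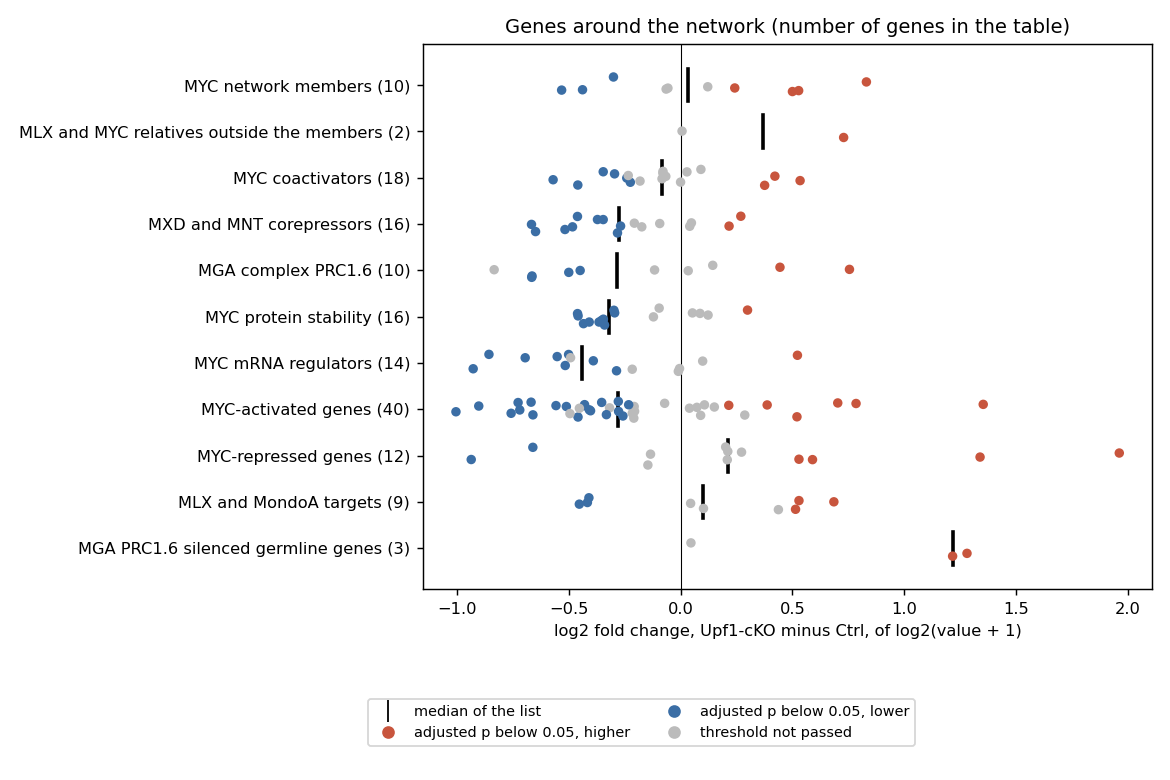
Log2 fold change (x axis, Upf1-cKO minus Ctrl, of log2(value + 1)) of each gene in the lists around the network, coloured by the limma call, with the median of each list as a bar. The network genes lie between -0.53 and 0.83, on both sides of 0, and the medians of the lists of coactivators, corepressors, PRC1.6 genes and MYC regulators lie below 0. Scaled to total reads, which moved all genes up, the coactivator median was 0.12 against 0.19 over all genes.

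Features of the annotated transcripts were compared because UPF1 acts in nonsense-mediated mRNA decay. GENCODE M21 annotates a transcript of this decay class for *Max* and for *Mxd1*, 2 of the 10 network genes, against 29.3% of protein-coding genes in the table. An upstream ATG in the 5′ untranslated region of the main coding transcript was present in *Mycn* (1) and *Mga* (3), against 49.4% of genes with such a transcript. The 3′ untranslated region was longer than the median of 925 bases in 7 of the 10 genes, up to 4616 bases in *Mga* and 3829 in *Mxd1*. Both genes with an upstream ATG were higher, as were *Mxd1* and *Mxi1*, which had none. Of the pair with a decay-class transcript 1 was higher and the other did not pass. Among the genes with the longer 3′ untranslated region *Mxd1*, *Mxi1* and *Mga* were higher, *Mlx* and *Mxd4* were lower, and *Max* and *Mnt* did not pass. Over all genes 27.7% were higher and 25.0% lower, and the shares among genes with each feature were not counted. The gene-level rows do not separate transcripts.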

How the data were processed

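RNA of sorted early LPre-B cells was depleted of ribosomal RNA and sequenced from 1 end. Per the study's methods and the submitters' processing notes, the authors trimmed reads with cutadapt 4.0, aligned them to mm10 (GRCm38) with HISAT2 without strand and counted them with featureCounts 2.0.1; limma 3.48.0 is also named. The deposited table holds a signal on a linear scale for each gene. From the values, it is a read count plus 0.5 per 1e6 reads of an effective library size: whole reads were recovered for 100% of values within 0.05 reads. Every gene exceeded 0.5 in at least 3 libraries.

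Groups came from the sample titles, and the libraries are independent biological replicates per the study's methods. Values were tested with limma 3.58.1 (R 4.3.3) on log2(value + 1), using robust eBayes with a trend and no term besides group, and p-values were adjusted by Benjamini-Hochberg over 13426 genes. Where no tool is named, an adjusted p is limma's. The fold change on this scale understates the change of low genes. RefSeq GRCm38.p6 named 13008 rows, and transcript lengths came from GENCODE M21 (90.5% of genes). Scripts were tested on simulated counts. Alternatives were a replicate block, eBayes without trend, voom, edgeR 4.0.16 and DESeq2 1.42.0 on recovered reads, other scalings, low-value filters, pseudocounts of 0.1 or none, and leaving out each library. Network genes and lists were chosen with earlier results of these data known, and no p-value is adjusted over a list alone. Named were all network genes, *Upf1*, *Mycl*, *Mlxip* and *Mlxipl*, and at most 4 genes per list by size of change among those past the threshold, 3 per direction; not all are reported. Other names were chosen after their values were seen.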

Additional observations from a re-analysis of the deposited data

How the results depend on the processing

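*Mycn*, *Mxd1*, *Mxi1* and *Mlx* kept their direction and their call in each alternative that gave them a value; *Mycn* was removed by a minimum mean log2 value of 3. Of the network genes' values under the alternatives, 161 kept direction and side of the threshold or stayed uncalled, 17 lost the call and 1, that of *Myc* scaled to total reads, gained it. The losses fell on *Mxd3*, *Mxd4* and *Mga*. The number of lower network genes, 3 as reported, was 1 with eBayes without trend and 1 when scaled to total reads, and ran from 1 to 2 when a library was left out. The number of higher ones, 4 as reported, ran from 3 to 4 when a library was left out and was 5 when scaled to total reads. The lower genes over the whole table went from 3351 to 1936 when scaled to total reads, and the lower genes in the lists around the network from 62 to 30. Of all called genes 52.6% were higher, against 40.7% with median centring and 72.8% when scaled to total reads. The cause of these changes was not tested beyond the shift of the median of all genes by -0.11 and 0.18. Deviations from the group means of same-numbered libraries correlated at 0.082, -0.030 and -0.021, and those of differently numbered ones between -0.107 and 0.126. Such correlations cannot decide whether the libraries were paired. The sample titles do not state a pairing, though the column names give same-numbered libraries of both groups adjacent numbers. With a replicate block 3668 genes were higher and 3321 lower, and 4 network genes were higher and 3 lower. The depth limits *Mycn* and *Mycl*, with at most 44 and 18 reads per library.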
